A study of Mus musculus with 18 samples.

Results

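Macrophages clear lipoproteins, microbes and dying cells, and 8 genes of that work were listed as higher in macrophages that had lost EED. They are Apoe, Scd1, Cd36, Marco, Mrc1, Cd209f, C1qa and Gas6. The 8 were picked by name out of the 816 distinct gene symbols of the authors' deposited table, because they had rows there, so their fold changes and p-values chose them and are given as a description. EED belongs to the core of Polycomb repressive complex 2 (PRC2), a silencing complex that places methyl groups on histone H3 at lysine 27.

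RNA-seq was run on primary mouse macrophages grown from bone marrow, in 6 groups of 3 libraries. EED KO cells came from Eedfl/fl; LysM-Cre+/- mice, in which Cre is made from the Lyz2 locus of myeloid cells, and WT cells from littermates whose Cre status the labels do not state. EED KO and WT cells were compared unstimulated, LPS primed (lipopolysaccharide, a bacterial cell wall component, at 100 ng/ml for 24 h) and LPS tolerant (the same priming, then 48 h of rest and a second exposure at 10 ng/ml). Ages and sexes of the mice, and whether the numbered libraries came from separate mice, are not stated in the labels. With that unknown, the p-values measure the spread between libraries, which may be technical.

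These proteins act at several steps of uptake and lipid handling. Scavenger receptors (Marco, Cd36) and C-type lectins (Mrc1, Cd209f) bind modified lipoproteins, microbial surfaces or sugars at the cell surface. C1q and Gas6 bridge dying cells to their receptors. Lipid in the cell can be desaturated and stored, with the help of enzymes such as Scd1, or exported on particles that carry apolipoprotein E.

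The deposited rows hold fold changes and p-values per condition. Levels per library were not used here, so neither the value in each sample nor the depth behind it can be given. For the same reason the macrophage label could not be checked against the level of markers. Fold changes are EED KO over WT and the log base, which the files do not state, was taken as 2. The standard error (SE) of each value is an approximation, obtained from the fold change and its unadjusted p. If p was adjusted by the Benjamini-Hochberg method, more tests were run than there are mouse genes. In that case a row can stand for part of a gene. The targeted gene was in the lower list each time, with log2 fold changes of -3.04, -3.59 and -3.87 for Eed in unstimulated, primed and tolerant cells per the authors' deposited table. Lyz2, the gene that carries Cre, also fell, with log2 fold changes of -1.17, -1.19 and -0.93 per the authors' deposited table. Its part in the results below was not tested. In bulk RNA a change in the number of cells of a type and a change in RNA per cell cannot be told apart.

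All 11 rows of the 8 members were in the lists of genes higher in EED KO cells, and none was in a lower list. There were 4 in unstimulated, 2 in LPS primed and 5 in LPS tolerant cells. The other 13 of the 24 pairs of member and condition had no row. A pair without a row has no value here. Over all deposited rows, 174 were higher and 53 lower in unstimulated cells, 301 and 76 in primed, and 344 and 75 in tolerant cells. Most rows were thus higher, and the members were picked by name, so nothing is read from their shared direction. The listed rows all had an absolute log2 fold change of 0.75 or more and an unadjusted p under 0.05. At an adjusted p under 0.05, 0 of 4 member rows passed in unstimulated cells, 2 of 2 in primed cells and 3 of 5 in tolerant cells. Among all rows of the higher lists, 21.8%, 34.6% and 25.9% passed in the same order. Since the members were chosen from these rows, nothing is read from the difference. At the threshold, Cd36 in tolerant cells was just inside with an adjusted p of 0.0479, and the member row next outside was Marco in tolerant cells with 0.626, both per the authors' deposited table.

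**Figure D1:**
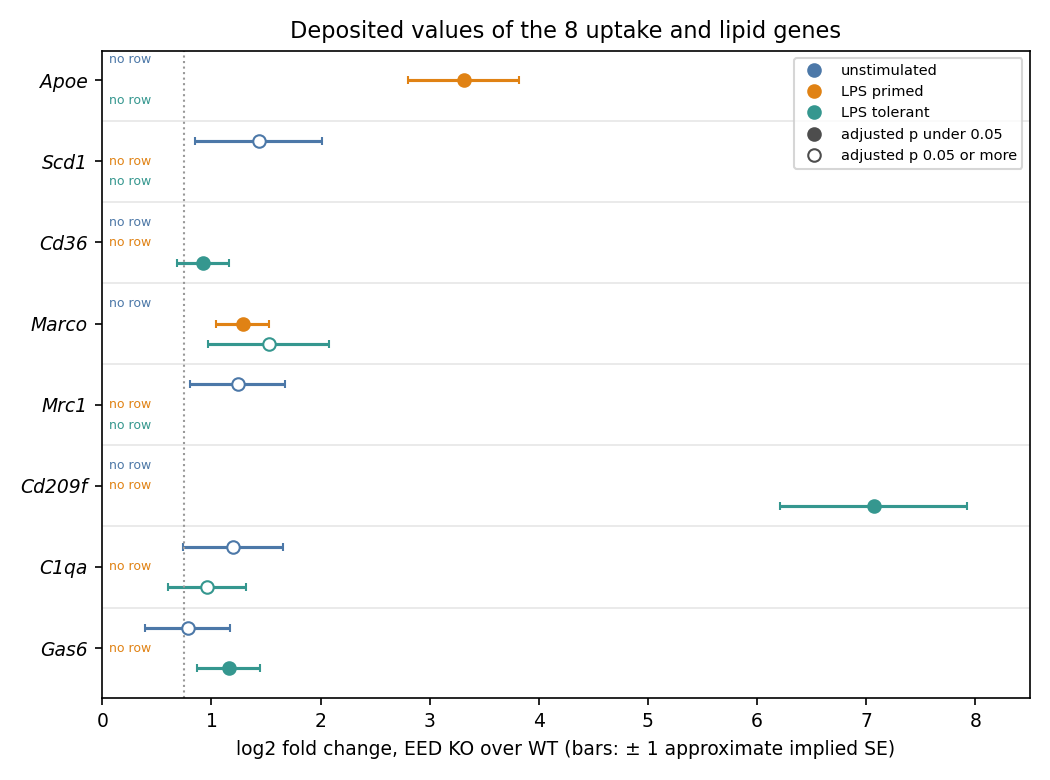
Log2 fold change of EED KO over WT (horizontal axis) for the 8 members in the 3 conditions (unstimulated, LPS primed, LPS tolerant), as 1 point per deposited row with a bar of 1 approximate SE to each side; filled points had an adjusted p under 0.05, and the dotted line at 0.75 marks the smallest change that was listed. Cd209f at 7.07 and Apoe at 3.31 stand apart from the other 9 rows, which lie between 0.78 and 1.52.

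The members differed in the sequence around their start sites. PRC2 in mammals is found mostly at promoters rich in CG dinucleotides, so these were counted in RefSeq windows of 300 bases (250 before and 50 after the start, build GRCm38.p6, an older build than the authors'). Windows were found for 6 members (Apoe, Marco, Cd36, Cd209f, Gas6 and Mrc1). The windows of the 5 members that passed the adjusted threshold are shown so that dense and sparse ones can be compared, 5' to 3', with every CG in capitals. They lie on the minus strand at chr7:19699139-19699438 (Apoe, the most upstream of its 3 windows), chr1:120504975-120505274 (Marco), chr5:17835847-17836146 (Cd36), chr8:4105715-4106014 (Cd209f) and chr8:13494486-13494785 (Gas6).
Apoe: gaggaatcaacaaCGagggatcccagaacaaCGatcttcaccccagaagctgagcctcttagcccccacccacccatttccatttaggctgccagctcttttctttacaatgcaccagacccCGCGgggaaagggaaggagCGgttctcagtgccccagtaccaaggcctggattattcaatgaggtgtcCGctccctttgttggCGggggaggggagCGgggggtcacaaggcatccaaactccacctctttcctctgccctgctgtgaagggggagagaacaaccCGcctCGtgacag
Marco: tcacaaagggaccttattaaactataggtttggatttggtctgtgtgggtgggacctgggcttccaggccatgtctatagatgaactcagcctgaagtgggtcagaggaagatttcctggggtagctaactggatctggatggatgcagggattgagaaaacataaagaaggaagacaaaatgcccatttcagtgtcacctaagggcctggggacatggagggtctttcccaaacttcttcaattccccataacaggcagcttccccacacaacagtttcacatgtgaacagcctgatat
Cd36: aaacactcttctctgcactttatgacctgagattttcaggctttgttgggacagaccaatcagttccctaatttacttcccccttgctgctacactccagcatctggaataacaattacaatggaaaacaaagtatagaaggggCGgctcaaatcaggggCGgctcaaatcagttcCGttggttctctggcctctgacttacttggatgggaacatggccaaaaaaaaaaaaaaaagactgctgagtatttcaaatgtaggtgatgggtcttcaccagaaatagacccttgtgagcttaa
Cd209f: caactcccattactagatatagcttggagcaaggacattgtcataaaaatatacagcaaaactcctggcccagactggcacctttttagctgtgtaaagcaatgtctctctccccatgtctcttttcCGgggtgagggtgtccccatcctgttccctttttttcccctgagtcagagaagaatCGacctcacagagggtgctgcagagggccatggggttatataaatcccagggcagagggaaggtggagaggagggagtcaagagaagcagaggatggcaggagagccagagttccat
Gas6: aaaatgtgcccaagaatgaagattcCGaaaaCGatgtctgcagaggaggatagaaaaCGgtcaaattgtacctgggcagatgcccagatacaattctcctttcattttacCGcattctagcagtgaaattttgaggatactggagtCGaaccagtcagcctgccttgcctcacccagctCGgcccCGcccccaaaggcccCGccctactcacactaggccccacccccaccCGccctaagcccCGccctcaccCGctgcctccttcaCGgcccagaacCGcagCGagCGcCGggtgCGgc

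Marco had 0 CG dinucleotides in its window, Cd209f 2 and Cd36 3, and Mrc1 on chromosome 2 also had 3. Apoe had 10 to 12 over its windows, and Gas6 had 17. Thus 4 of the 6 members had at most 3, and so did 50% of the members' 8 windows, of which Apoe has 3. Such sparse windows made up 16.6% of the 626 windows of genes in the higher lists. Among the 191 windows of genes in those lists that passed the adjusted threshold, they made up 21.99%. The share was 23.9% for windows of protein-coding genes and 31.4% for all 32851 windows. The median was 14 CG per window for genes in the higher lists, 13 for protein-coding genes and 7 over all windows. These shares are a description of a few genes that were picked by name. The letters GAGGAA, a core sequence bound by the macrophage lineage factor PU.1, or their reverse complement TTCCTC, were in 4 of the 8 windows of members (those of Marco and Mrc1 and 2 of Apoe), against 27.8% of the windows of genes in the higher lists and 28.3% of all windows.

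**Figure D2:**
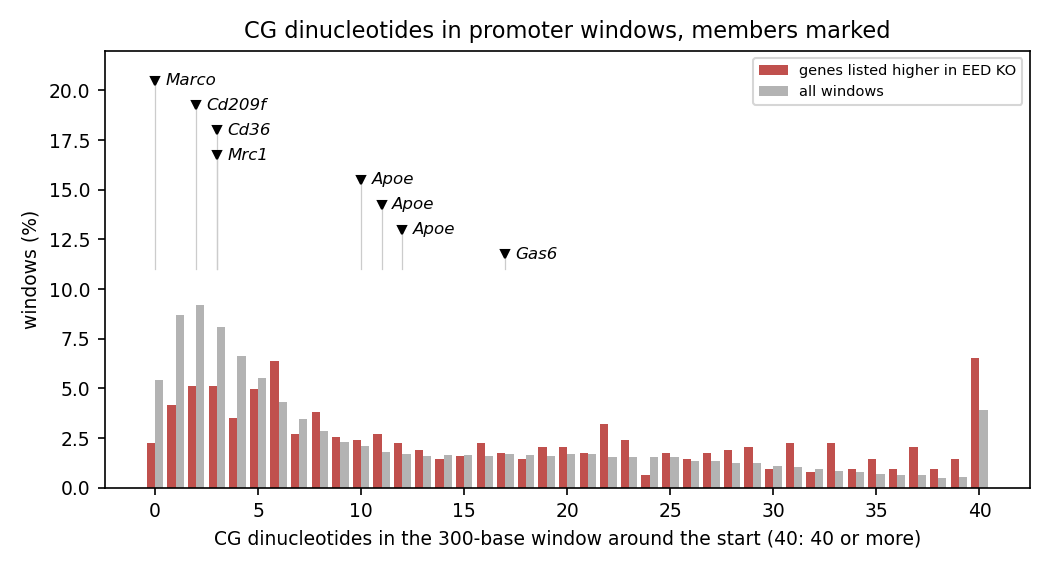
Share of promoter windows (vertical axis, percent) by the number of CG dinucleotides they hold (horizontal axis; 40 stands for 40 or more), for genes listed higher in EED KO cells and for all windows, with triangles above the bars at the counts of the members' windows. Marco, Cd209f, Cd36 and Mrc1 lie at 0 to 3, Apoe at 10 to 12 and Gas6 at 17.

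Apoe encodes apolipoprotein E, which macrophages secrete and which accepts cholesterol from them, and is a target of the liver X receptors. It was listed in LPS primed cells only, where it rose by 3.31 on the log2 scale (9.93-fold, SE 0.51, approximate 95% interval 2.32 to 4.30, adjusted p = 5.93e-08) per the authors' deposited table. By size of change it ranked 8 of the 301 genes in that list, and by p it ranked 23. Apoe lies in a cluster of apolipoprotein genes. Its neighbours Apoc1 and Apoc4 had no row in any condition. Apoc2, which activates lipoprotein lipase and lies beyond them, was listed in tolerant cells, where Apoe was not, at 0.88 (adjusted p = 0.680) per the authors' deposited table. Gm44805, a readthrough gene that overlaps Apoc2 and can share its reads, stood at 0.78 (adjusted p = 0.905) in the same condition per the authors' deposited table. On the other side, Nectin2, a cell adhesion gene, rose in primed cells by 1.13 (adjusted p = 3.63e-05) per the authors' deposited table, as Apoe did. Of the 48 protein-coding genes within 3 places of a member, Gm44805 and Nectin2 were the 2 listed.

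Scd1, the enzyme that makes monounsaturated from saturated fatty acids, was listed in unstimulated cells only. It stood at 1.43 (2.70-fold, SE 0.58, interval 0.29 to 2.58), with an unadjusted p of 0.0140 and an adjusted p of 1 per the authors' deposited table. It had the largest change of the 4 members listed in unstimulated cells and also the largest SE. Its paralogs Scd2, Scd3 and Scd4, which lie next to it, had no row.

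The scavenger receptor Marco, which binds bacteria and particles, was listed after both LPS regimens and had no row in unstimulated cells. It rose by 1.29 in primed cells (2.44-fold, SE 0.24, interval 0.81 to 1.76, adjusted p = 6.22e-05) per the authors' deposited table. In tolerant cells it stood at 1.52 (2.87-fold, SE 0.55, interval 0.44 to 2.61, adjusted p = 0.626) per the authors' deposited table. The tolerant value is the higher one but has the wider SE, and the 2 intervals overlap. The difference between the conditions was not tested.

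Cd36, a receptor for oxidised lipoproteins and long-chain fatty acids, was listed in tolerant cells only. It rose there by 0.92 (1.89-fold, SE 0.24, interval 0.45 to 1.39, adjusted p = 0.0479) per the authors' deposited table. It ranked 171 of 344 by size and 89 by p among the genes listed higher, and it had the smallest change and the smallest SE of the 5 members listed in tolerant cells.

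Both C-type lectins were listed in 1 condition each, and not in the same one. Mrc1, the mannose receptor and a marker of alternative activation, stood at 1.24 in unstimulated cells (2.36-fold, SE 0.44, interval 0.39 to 2.09, unadjusted p = 0.00443, adjusted p = 1) per the authors' deposited table. Cd209f, a mouse relative of the human lectin DC-SIGN, rose by 7.07 in tolerant cells (SE 0.86, interval 5.39 to 8.75, adjusted p = 4.38e-13) per the authors' deposited table. It had the largest change of the 344 genes listed higher there and ranked 7 by p. A log2 value of this size is 134-fold, and it can arise where few or no reads were counted in one group, so the fold depends on how low counts were handled and is no bound. Of the 7 Cd209 genes looked up, it was the one with a row. These genes are similar copies that lie side by side, and reads can be hard to assign among them, so the value is uncertain.

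The opsonin gene and the bridging gene shared a listing pattern. C1qa, the A chain of complement C1q, and Gas6, which links phosphatidylserine on dying cells to the receptors Tyro3, Axl and Mertk, were each listed in unstimulated and tolerant cells, with no row in primed cells. C1qa stood at 1.19 in unstimulated cells (2.29-fold, SE 0.46, interval 0.30 to 2.09, adjusted p = 1) per the authors' deposited table. In tolerant cells it stood at 0.96 (1.94-fold, SE 0.36, interval 0.25 to 1.66, adjusted p = 0.698) per the authors' deposited table. C1qa lies beside C1qb and C1qc, which encode the other 2 chains, and of the 3 it was the one listed.

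Gas6 stood at 0.78 in unstimulated cells (1.72-fold, SE 0.39, interval 0.02 to 1.55, unadjusted p = 0.0444, adjusted p = 1) per the authors' deposited table. That row was the closest of all member rows to the bounds of the lists. In tolerant cells Gas6 rose by 1.16 (2.23-fold, SE 0.29, interval 0.60 to 1.72, adjusted p = 0.0251) per the authors' deposited table. The intervals of the 2 conditions overlap for C1qa and for Gas6, and a difference between conditions was not tested. Listing in unstimulated and tolerant but not primed cells was seen for 13 of the 659 genes in the higher lists, C1qa and Gas6 included. Listing in primed and tolerant but not unstimulated cells, as for Marco, was seen for 60. Of the 8 members, 5 were listed in 1 condition, 3 in 2 and 0 in all 3, and of the 659 genes 529 (80.3%), 100 (15.2%) and 30 (4.55%).

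**Figure D3:**
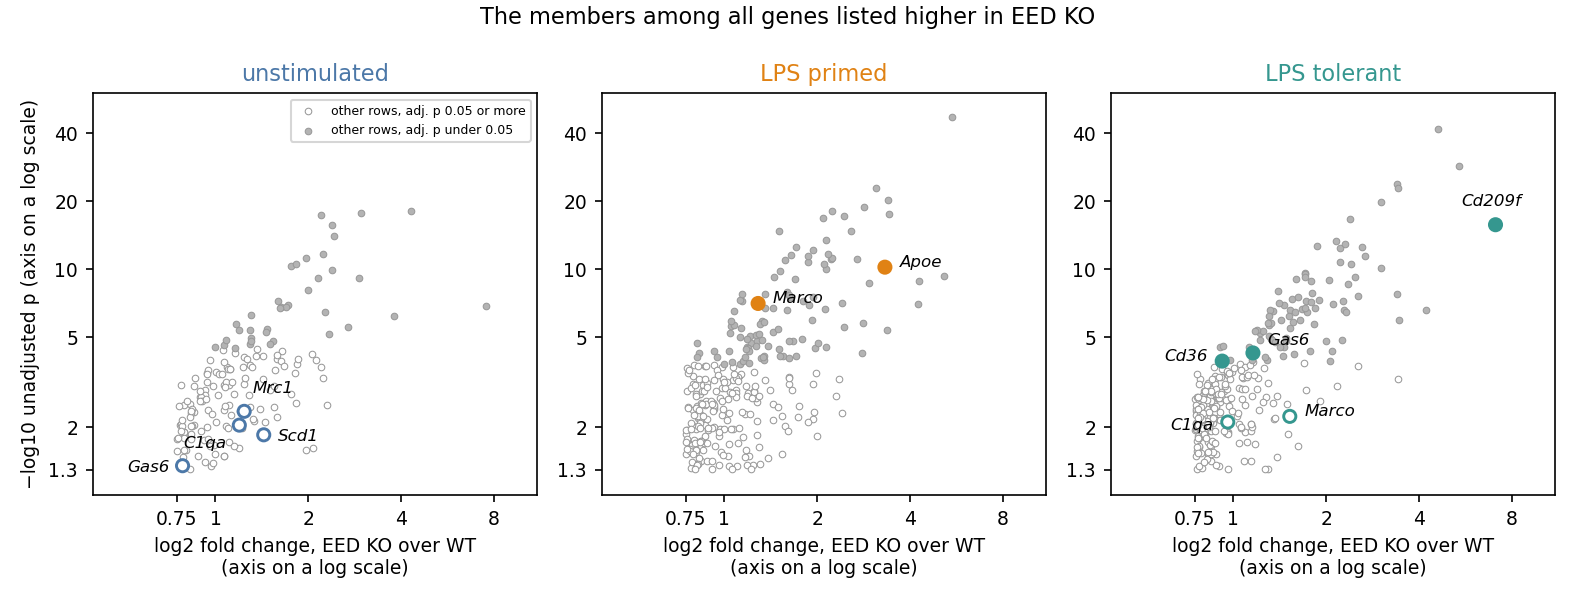
Every gene listed higher in EED KO cells, by log2 fold change (horizontal axis, on a log scale) and -log10 of the unadjusted p (vertical axis, on a log scale), in 1 panel per condition with the members in colour and labelled; filled points had an adjusted p under 0.05. The 4 members in unstimulated cells lie in the lower part of the cloud, with unadjusted p of 0.00443 to 0.0444, while Apoe in primed and Cd209f in tolerant cells lie toward the upper right.

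The members' values had wider errors than the typical listed gene in unstimulated cells. The SE of the 4 members there ran from 0.39 to 0.58, against a median of 0.33 over all 174 rows listed higher. The median log2 fold change was 1.22 for those members and 1.11 for all rows listed higher. In tolerant cells the 5 members had a median of 1.16, against 0.92 over the 344 rows. In primed cells the 2 members, Apoe and Marco, stood at 3.31 and 1.29 per the authors' deposited table. The median over the 301 rows there was 1.09. The members were chosen from these rows, so nothing is read from these differences.

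The genes whose fold changes lay closest to those of a member were named among genes with the same listing pattern, by the mean absolute difference in log2 fold change over the 2 conditions listed. For Marco the one named is Ntng2, a netrin relative (difference 0.11), of 59 candidates. For Gas6 they were Sulf2, a sulfatase that edits heparan sulfate (0.12), and Inpp4b, a phosphoinositide phosphatase (0.17), of 12 candidates. For C1qa they were Sulf2 again (0.18) and Dio2, a thyroid hormone deiodinase (0.21), of the same number. Ntng2 rose by 1.51 in primed and 1.52 in tolerant cells per the authors' deposited table. Sulf2 stood at 0.94 in unstimulated and 1.07 in tolerant cells, with adjusted p of 0.279 and 0.251, per the authors' deposited table.

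Around the members, 7 lists of uptake and lipid genes were looked up, with 171 genes in all. Of these, 24 were listed in at least 1 condition, the 8 members included. The share of all tested genes that were listed is not known. The 7 lists were chosen with earlier results of these data known, so the count is a description. In unstimulated cells 6 were listed, all higher, and 1 passed the adjusted threshold, against 19.4% of all deposited rows. In primed cells 10 were listed, 9 higher and 1 lower, and 5 rose and 1 fell, against 33.2% of all rows. In tolerant cells 15 were listed, 14 higher and 1 lower, and 5 rose, against 23.6%. The median log2 fold change of the listed genes was 1.22, 1.12 and 0.92 in the 3 conditions, against 0.98, 0.96 and 0.86 over all deposited rows. In each condition most deposited rows were higher, as given above. These counts and medians include the members, which were chosen for having rows. Among the 163 list genes that are no members, 2 were listed in unstimulated cells, both higher, and 1 rose. In primed cells 8 were listed, 7 higher and 1 lower, and 3 rose and 1 fell, and in tolerant cells 10 were listed, 9 higher and 1 lower, and 2 rose. Their median log2 fold change was 1.39, 0.91 and 0.86 in the same order, so without the members the primed median lay below that of all deposited rows and the tolerant one was about equal to it.

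Scavenger receptors other than the members were listed in tolerant cells. Cd163, the haemoglobin scavenger receptor, stood at 0.95 (adjusted p = 0.849) and Scarf1, a receptor for modified lipoproteins, at 0.78 (adjusted p = 0.487) per the authors' deposited table. With Marco and Cd36 this made 4 of 20 scavenger receptors, all higher, of which Cd36 rose. Most deposited rows in tolerant cells were higher. In primed cells Marco was the only one listed of the 20, and none was listed in unstimulated cells. Of the 27 C-type lectins, the other listed one was Clec4n, which encodes Dectin-2, at 0.85 in tolerant cells (adjusted p = 1) per the authors' deposited table.

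Of the Gas6 receptors, Axl and Mertk had rows after LPS, and neither passed. Axl stood at 0.86 in primed (adjusted p = 0.577) and 0.78 in tolerant cells (adjusted p = 0.150) per the authors' deposited table. Mertk stood at 0.79 in primed cells (adjusted p = 0.374) per the authors' deposited table, and Tyro3 had no row. Thus in tolerant cells the ligand rose and 1 of its 3 receptors was listed higher without passing. Within the engulfment list of 30 genes, Cx3cr1, the receptor for the find-me signal fractalkine, rose by 2.24 in primed and 1.87 in tolerant cells per the authors' deposited table. Itgb5, an integrin subunit that binds bridged dying cells, stood at 0.83 in tolerant cells (adjusted p = 0.189) per the authors' deposited table.

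Complement genes beside C1qa included Cd55, decay-accelerating factor, which shields cells from complement. It rose by 1.99 in unstimulated, 2.22 in primed and 1.71 in tolerant cells (adjusted p = 3.25e-05, 1.04e-08 and 4.76e-07) per the authors' deposited table. No other gene of the 171 was listed in all 3 conditions. C1s1, a protease of the C1 complex, rose by 1.38 in primed cells (adjusted p = 0.0118) per the authors' deposited table, where C1qa had no row.

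Of the 24 genes in the apolipoprotein and cholesterol list, 1 rose and 1 fell, both in primed cells. That list did not hold the apolipoprotein L genes Apol7c, Apol9a and Apol9b, which had rows and are given at the end. In primed cells, where Apoe rose, Lipa, the lysosomal acid lipase that frees cholesterol from ingested lipoproteins, fell by 1.01 (adjusted p = 0.0490) per the authors' deposited table. Ch25h, which makes 25-hydroxycholesterol, stood at 0.96 in primed cells (adjusted p = 0.736) per the authors' deposited table. The liver X receptor genes Nr1h2 and Nr1h3 and the cholesterol exporters Abca1 and Abcg1 had no row in any condition.

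Genes of fatty acid synthesis and storage had few rows and none past the adjusted threshold. Besides Scd1, Dgat2, which makes triglyceride, stood at 0.84 in primed cells (adjusted p = 1) per the authors' deposited table. Fabp4, a fatty acid carrier, stood at 0.79 in unstimulated cells (adjusted p = 1) per the authors' deposited table. Ppard, a nuclear receptor for fatty acids, stood at 0.89 in tolerant cells (adjusted p = 0.358) per the authors' deposited table.

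**Figure D4:**
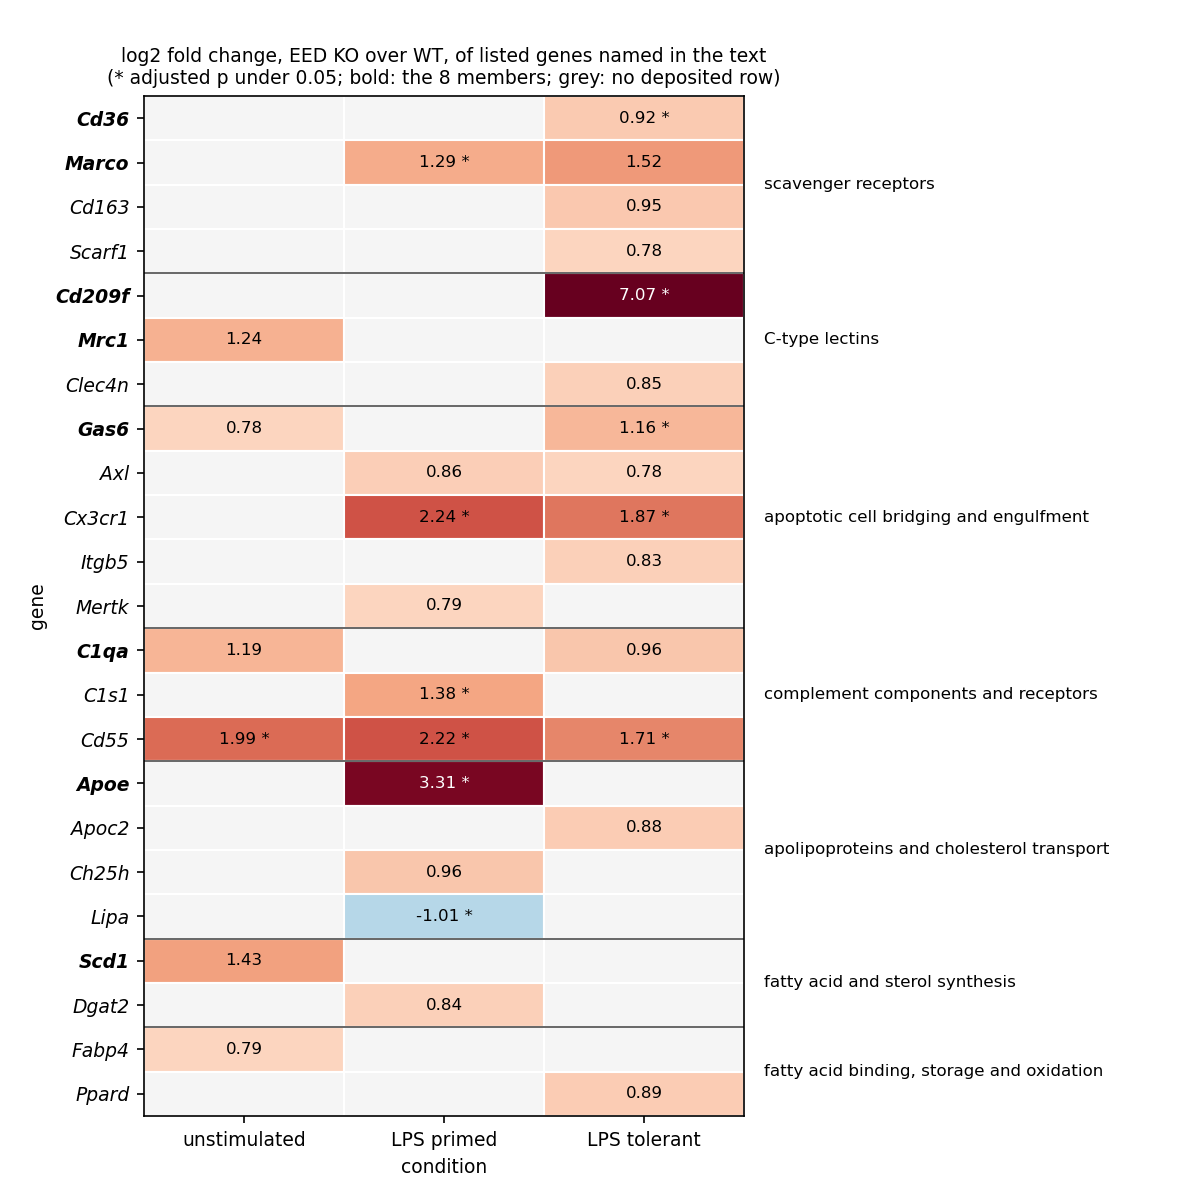
Log2 fold change of EED KO over WT for the listed genes of the 7 lists that are named here (rows, grouped by list, the 8 members in bold) in the 3 conditions (columns); red is higher and blue lower in EED KO cells, the colours end at 3.5, an asterisk marks an adjusted p under 0.05 and grey a pair with no row. The filled cells are red except for Lipa at -1.01 in primed cells.

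Markers of other cell types were listed beside the members, without a level. Among all deposited rows 19.4%, 33.2% and 23.6% passed in unstimulated, primed and tolerant cells, and most rows were higher. In primed cells, where Apoe and Marco rose, 4 of 62 such markers were listed, all higher, and 3 rose, namely Fscn1 of dendritic cells, Mmp9 of osteoclasts and Dcn of stromal cells (2.58, 3.43 and 1.71 per the authors' deposited table). In tolerant cells, beside Cd209f, Gas6 and Cd36, 8 were listed, all higher, and 5 rose, namely Mmp9, Ppbp, Car2, Fscn1 and Mmp8 (3.41, 2.03, 1.82, 1.30 and 1.30 per the authors' deposited table). In unstimulated cells 4 were listed, 3 of them higher, and 1 passed, Ctsk of osteoclasts, which fell by 1.89 per the authors' deposited table. The other listed markers did not pass, with Ighm of B cells at 1.63, Cd24a of dendritic cells at 0.93 and Fabp4, also a marker of adipocytes, at 0.79 in unstimulated cells per the authors' deposited table. Eng of endothelial cells stood at 0.86 in primed and 0.77 in tolerant cells, and the stromal markers Dcn and Igfbp7 stood at 1.35 and 1.12 in tolerant cells, per the authors' deposited table. No T or NK cell marker had a row. Of the 8 markers of macrophages in general, Lyz2 and Mertk had rows. Of 10 markers of resident tissue macrophages, 3 were listed, all in tolerant cells and none past the threshold, with Cd163 at 0.95, Folr2 at -1.19 and Vcam1 at -1.12 per the authors' deposited table. The part of other cell types in the members' values was not tested.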

How the data were processed

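The authors deposited 2 lists per condition, of genes higher and of genes lower in EED KO cells. Each deposited row gives a log2 fold change, a p-value and its adjusted p-value. The log base (read as 2) and the direction of the contrast (read from Eed) are assumptions, since the file headers give neither. HISAT2, R 4.0.3, edgeR and the build GRCm39 are named in the submitters' processing notes. Their roles, the annotation, the filters and the test were not given in the sources used here. Per the labels' protocols, libraries were stranded mRNA. For 1 library, in the WT LPS primed group, the labels do not tie it to a comparison.

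Rows were read for the 8 members, all with Ensembl identifiers that match their symbols in GENCODE vM21, and no model was fitted. The approximate SE is the size of the log2 fold change over the standard normal value that its unadjusted p corresponds to, and intervals are 95%. Adjustment by the Benjamini-Hochberg method was assumed in counting tests. The ratio of adjusted to unadjusted p then gives at least 413233, 189859 and 338297 tests in unstimulated, primed and tolerant cells. GENCODE vM21 holds 55450 genes. Under that assumption a row can stand for part of a gene. The named genes are the members, Eed, the listed genes of the lists and markers, and the 2 nearest genes of each member listed in 2 conditions; Lyz2 is one of the markers, and neighbouring genes were added after their values were seen. Some genes that the rule names are not reported here. The members and lists were chosen with earlier results of these data known. Python 3.11.15, pandas 2.3.3, scipy 1.17.1 and matplotlib 3.10.9 were used.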

Additional observations from a re-analysis of the deposited data

How the results depend on the processing

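The counts of genes called were recomputed with other thresholds. Of 30 alternative counts, 23 were within 1.5 times the reported one and 7 were not. Some of the 23 could not have moved, so the tally is no measure of robustness. A count of 0 members in unstimulated cells cannot fall under a stricter setting. Counting once per Ensembl identifier cannot change the member counts, since each member has 1 identifier. With every deposited row counted, whatever its adjusted p, the members numbered 4 in unstimulated and 5 in tolerant cells, and the genes of the 7 lists 6 in unstimulated, 10 in primed and 15 in tolerant cells. At an adjusted p under 0.01, 1 member (Cd209f) and 3 genes of the lists passed in tolerant cells, since Cd36 and Gas6 lie between 0.01 and 0.05. In primed cells the count of 2 members was the same under all 5 alternatives. Only 2 member rows were listed there and both had passed, so the looser settings could not change it. The stricter adjusted p and the fold change bound could have lowered it and did not. Requiring a log2 fold change of at least 1 as well left 2 members in tolerant cells, without Cd36. Read as natural logarithms, the fold changes would be larger, and 10 of the 11 member values moved by more than 1 approximate SE. No paired analysis was possible because values per library were not used here, and for the same reason no library was left out in turn. The depth behind each value is unknown.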

Other observations

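Uptake and lipid genes outside the 7 lists were sought afterwards, by 9 words in the deposited gene descriptions, and 7 were found, 3 of them past the adjusted threshold in at least 1 condition. The words were matched at the start of a word only, so descriptions with the word apolipoprotein were missed and the search is not complete. Fcrls, described there as a scavenger receptor of the Fc receptor-like family, was the 1 gene of the 7 listed in all 3 conditions. It stood at 1.10 in unstimulated cells (adjusted p = 0.219) and rose by 1.94 in primed and 1.61 in tolerant cells (adjusted p = 2.10e-05 and 3.41e-05) per the authors' deposited table. Plaat3, a phospholipase and acyltransferase, rose by 1.31 in unstimulated and 1.49 in primed cells (adjusted p = 0.0273 and 0.00203) per the authors' deposited table. Cd300e, an activating receptor of myeloid cells, rose by 1.34 in tolerant cells (adjusted p = 0.000241) per the authors' deposited table. Apolipoprotein L genes were in neither the lists nor the search result. Of these, Apol7c rose by 2.47 in tolerant cells (adjusted p = 9.75e-07) per the authors' deposited table. Apol9b stood at -1.40 in unstimulated and 1.65 in primed cells, and Apol9a at 1.39 in primed cells, per the authors' deposited table. The rows of Apol9a and Apol9b did not pass the adjusted threshold.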
